A study of Mus musculus with 6 samples.

Results

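The genes described here make ribosomes: 40 genes of RNA polymerase I and of ribosome assembly, picked by symbol from a list of this pathway and read as rows of a count table of 24047 rows. All 40 had a row and passed the filter on low counts, among 10454 genes tested. They were compared between 3 libraries labelled Srsf1-cKO and 3 labelled WT. The first came from mice with both Srsf1 alleles floxed and a dLck.Cre transgene, a Cre driven by the distal Lck promoter, which is active in T cells. For the WT mice the labels mention neither Cre nor floxed alleles. All mice were 7 weeks old and of strain B6.129, with 3 mice per genotype. Naive CD4 T cells isolated from spleens were cultured for 72 h with anti-CD3 (0.5 µg/mL) and anti-CD28 (1 µg/mL), antibodies that trigger the T cell receptor and its costimulator. PMA (100 ng/mL) and ionomycin (1 µM), which bypass the T cell receptor, were then given for 4 h, and the labels call the cells Th0 effector cells.

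Ribosome assembly starts in the nucleolus, where RNA polymerase I transcribes one long precursor of most ribosomal RNA. Small nucleolar ribonucleoproteins (snoRNPs) modify that precursor: box C/D particles methylate riboses and box H/ACA particles turn uridines into pseudouridines. Large assemblies of proteins then fold and cut it into the RNA of the small (40S) and the large (60S) subunit. A T cell that leaves quiescence expands this machinery, and the transcription factor MYC is known to raise many of its genes. Names and roles of several of these proteins were worked out first in yeast, and the roles below are those known for the mammalian proteins or their yeast counterparts.

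The libraries held 8573465 to 10184268 gene counts in those labelled Srsf1-cKO and 7781283 to 9650828 in WT. The 40 genes took 1.65 to 1.92% of them in the libraries labelled Srsf1-cKO, and 1.80 to 1.97% in WT. Srsf1 itself, the targeted gene, was not lower: 523, 548 and 471 CPM (counts scaled to library size) in the libraries labelled Srsf1-cKO and 540, 458 and 486 CPM in WT, with overlapping groups (log2 fold change 0.06, SE 0.12, edgeR adjusted p = 0.780). A whole-gene count can miss the loss of single exons, so groups are named by label, and a rise or fall refers to the labelled Srsf1-cKO set. The summed level of 7 T cell markers ranged from 1875 to 2570 CPM in the libraries labelled Srsf1-cKO and from 2253 to 2397 CPM in WT. Of those 7 genes 1 was called higher, where 8.90% of all genes tested were. The sum of 2 CD8 T cell markers was lower, at 16.7 to 22.8 CPM in the libraries labelled Srsf1-cKO against 24.6 to 42.5 CPM in WT. Of these 2 markers 1 was tested, and it was not called. Of 5 B cell markers 2 were called higher, with sums of 82.8 to 105 CPM against 39.7 to 54.4 CPM in WT, and of 8 myeloid and dendritic markers, 4 of them tested, 2 were called higher, with sums of 26.8 to 37.6 CPM against 4.62 to 11.3 CPM in WT. The erythroid markers Hba-a1, Hbb-b1 and Alas2 and the NK marker Ncr1 were at 0 counts in all libraries. In bulk RNA fewer cells of a type and less RNA per cell cannot be told apart, and the part of these other cells in the results below was not tested.

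Of the 40 genes 5 moved, in both directions, and most of the others differed little between the genotypes. Nop56 and Nat10 rose, and Polr1d, Gnl3 and Npm1 fell. A gene is called where the adjusted p of edgeR's quasi-likelihood test, over all 10454 genes, is under 0.05. The 5 called of 40 are 12.5%, beside 18.4% of all genes tested: 2 of 40 higher beside 8.90%, and 3 of 40 lower beside 9.50%. The share of called genes among these 40 is thus not above that of the whole table. The median log2 fold change of the 40 was 0.05, beside 0.01 over all genes tested, and their range was -0.82 to 0.59, beside -6.40 to 6.45. The groups did not overlap for 12 of the 40 (30.0%, beside 39.4% of all genes tested), 6 higher (beside 19.9%) and 6 lower (beside 19.5%). For 28 of the 35 genes that did not pass, the 95% interval of the fold change lay inside 1.5-fold in either direction. That was so for 70.0% of the 40 and for 25.7% of all genes tested, which include many with fewer reads. The other 7, whose intervals allow a larger change, were Polr1c, Polr1e, Nop10, Rrp12, Tsr1, Nob1 and Bop1.

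**Figure D1:**
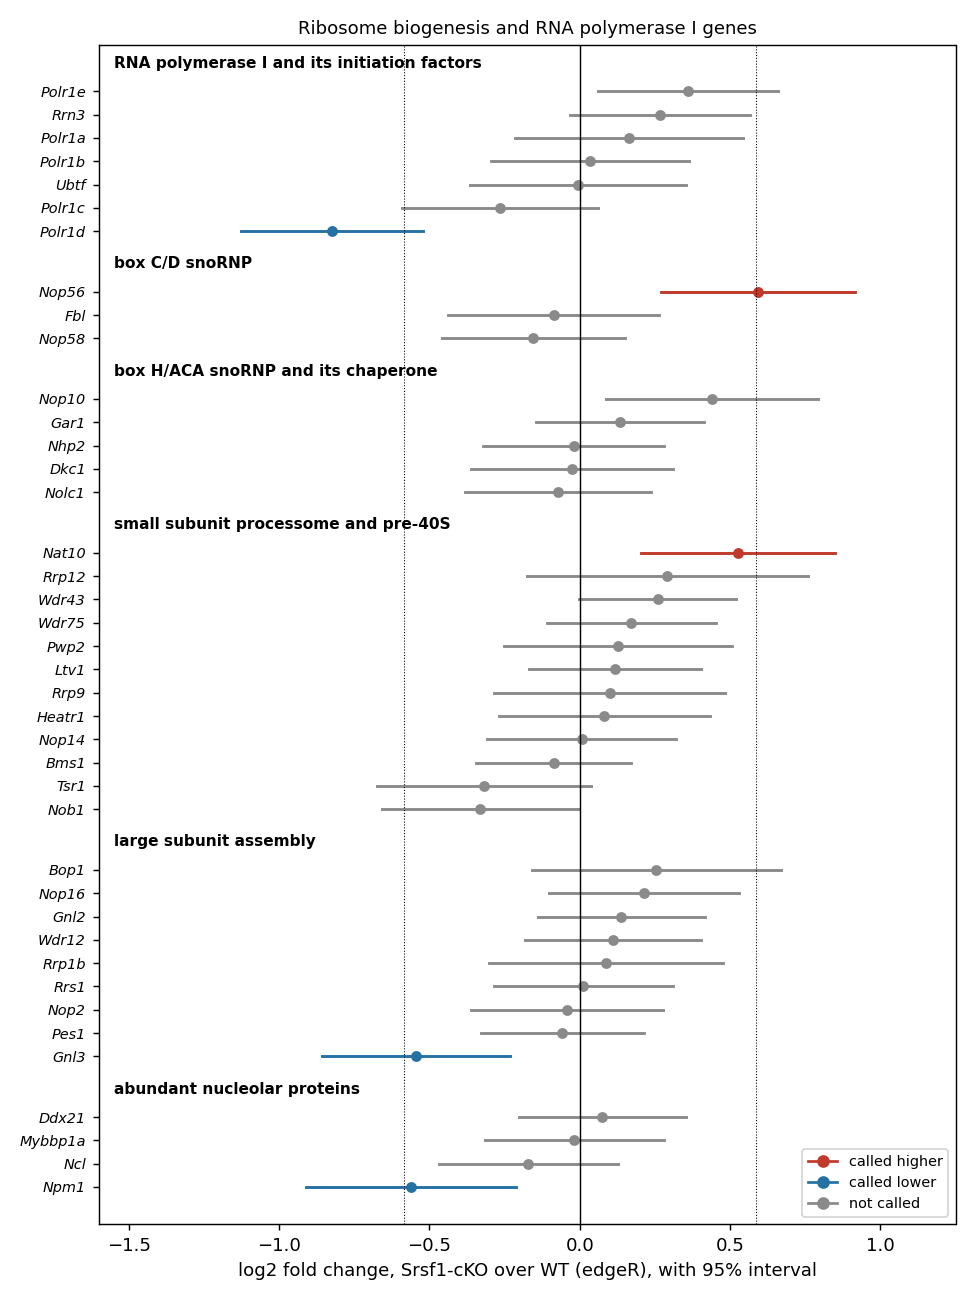
Log2 fold change of each of the 40 genes (x axis, Srsf1-cKO over WT, edgeR) with its 95% interval, grouped by role; dotted lines mark 1.5-fold either way. Nop56 and Nat10 lie to the right with intervals above 0, Polr1d, Gnl3 and Npm1 to the left, and 28 of the 35 grey intervals stay between the dotted lines.

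The calls depended on single libraries more than the fold changes did. Without WT replicate 1 or without Srsf1-cKO replicate 2, 0 of the 5 passed, where 1.84% and 2.20% of all genes did (195 and 234 calls, against 1923 with all libraries). Without Srsf1-cKO replicate 1, Polr1d passed (10.6% of all genes called), and without Srsf1-cKO replicate 3, Nat10, Nop56 and Polr1d did (13.0%). Without WT replicate 2, Nat10, Gnl3 and Polr1d passed (18.7%), and without WT replicate 3, Nop56, Gnl3, Npm1 and Polr1d did (18.5%). Over these 6 fits the log2 fold change stayed between -0.93 and -0.75 for Polr1d, 0.48 and 0.70 for Nop56, 0.43 and 0.62 for Nat10, -0.67 and -0.50 for Gnl3, and -0.68 and -0.45 for Npm1.

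Many of the 40 genes also varied in the same direction between libraries of one genotype. Set against each gene's own mean log2 CPM over the 6 libraries, the median gene lay at 0.07, 0.09 and -0.09 in the libraries labelled Srsf1-cKO and at 0.12, -0.14 and -0.01 in WT. WT replicate 1 was the highest library for 17 of the 40 genes and the lowest for 0, and WT replicate 2 was the lowest for 18 and the highest for 0. Among the libraries labelled Srsf1-cKO, replicate 2 was the highest for 13 and replicate 3 the lowest for 10. The coefficient of variation of CPM had a median of 7.51% over the 40 genes in the libraries labelled Srsf1-cKO (2.32% for Nolc1 to 21.3% for Polr1a), and of 12.6% in WT (3.39% for Gar1 to 27.0% for Rrp12). Libraries of one genotype thus differed in ways that many of the 40 genes shared. The same was not counted over all genes tested, so it is not shown to be particular to these 40.

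**Figure D2:**
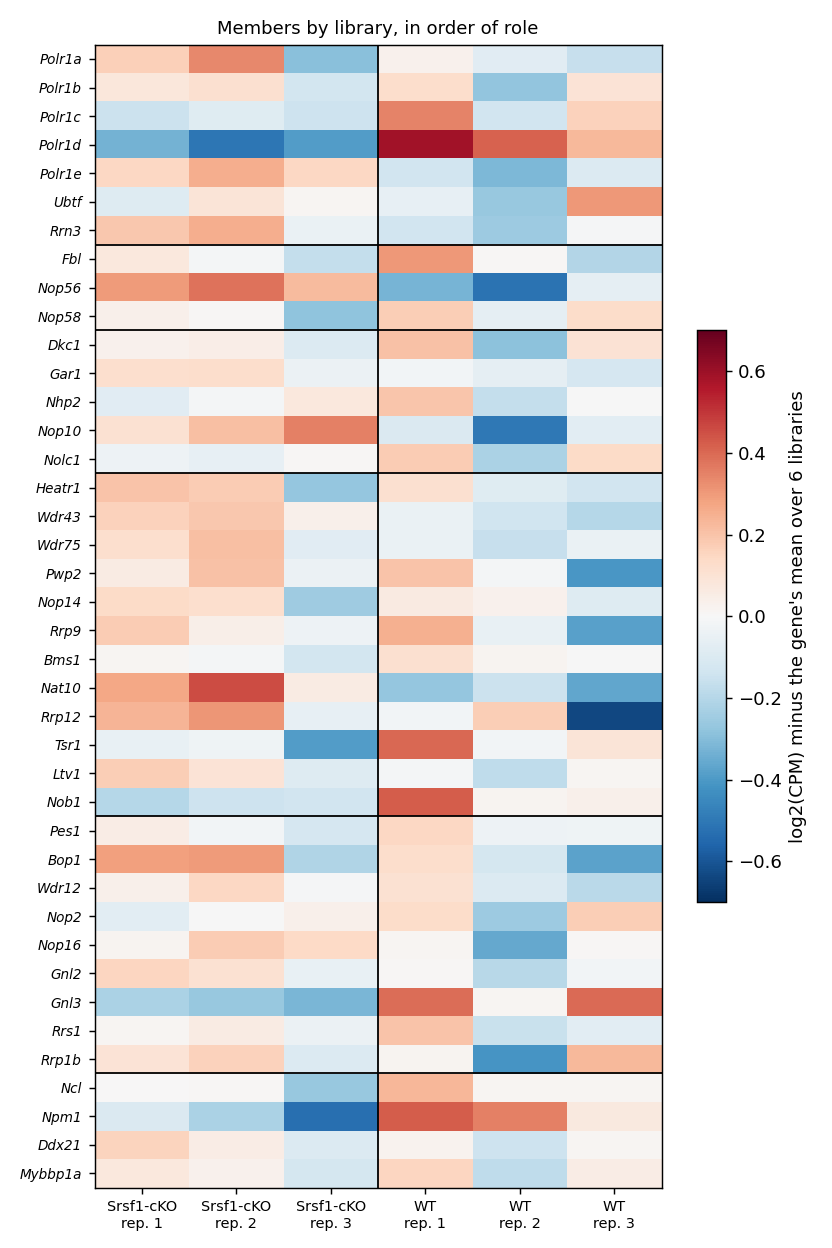
Each of the 40 genes (rows, in order of role) in each library (columns): log2(CPM) minus the gene's mean over the 6 libraries, red above and blue below. The column of WT replicate 2 is mostly blue and that of WT replicate 1 mostly red, while Polr1d, Nop56, Nat10, Gnl3 and Npm1 change colour between the 3 left and the 3 right columns.

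RNA polymerase I is built from a large catalytic subunit, Polr1a, a second large subunit, Polr1b, and smaller ones. Polr1c and Polr1d form a pair that RNA polymerase III also holds. Polr1d fell: it stood at 124, 110 and 119 CPM in the libraries labelled Srsf1-cKO and at 234, 207 and 182 CPM in WT. The groups were far apart, the highest Srsf1-cKO value lying below the lowest WT value (log2 fold change -0.82, SE 0.13, 95% interval -1.13 to -0.52, edgeR adjusted p = 0.00862). Its partner Polr1c stood at 126, 132 and 126 CPM in the libraries labelled Srsf1-cKO and at 178, 127 and 156 CPM in WT. Those groups overlapped, through WT replicate 2 (-0.27, SE 0.14, adjusted p = 0.222). Within a library, where scaling plays no part, there were 0.984, 0.834 and 0.943 Polr1d reads per Polr1c read in the libraries labelled Srsf1-cKO, and 1.32, 1.63 and 1.17 in WT. This pair and the other ratios below were picked after their values were seen, and are given without a test.

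The catalytic subunit gene Polr1a stood at 228, 256 and 166 CPM in the libraries labelled Srsf1-cKO and at 206, 192 and 181 CPM in WT, and Polr1b at 244, 250 and 211 CPM, with 251, 191 and 247 CPM in WT libraries. Both overlapped between the groups (log2 fold changes 0.16 and 0.03). Polr1e, which encodes the subunit PAF53, was not called but did not overlap: 64.4, 69.3 and 64.3 CPM in the libraries labelled Srsf1-cKO, against 53.1, 46.7 and 54.4 CPM in WT (0.36, SE 0.13, adjusted p = 0.0878). Rrn3, the factor that makes the polymerase competent to start, had a log2 fold change of 0.27 (SE 0.13, adjusted p = 0.186), with overlapping groups. For Ubtf, the gene of the upstream binding factor that keeps ribosomal genes open, the difference was -0.01 (SE 0.16), at 214, 242 and 230 CPM in the libraries labelled Srsf1-cKO and 219, 190 and 281 CPM in WT. Thus 1 of these 7 genes was called, lower (14.3%, beside 9.50% of all genes tested).

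The row of the 45S precursor, Rn45s, is the transcript that this polymerase makes. In a library of polyadenylated RNA it counts what ribosomal RNA was left over, so it is no measure of synthesis. It took 1.70, 1.91 and 1.68% of the counts in the libraries labelled Srsf1-cKO and 1.89, 0.596 and 1.21% in WT. The WT shares were the more spread, with WT replicate 1 inside the range of the libraries labelled Srsf1-cKO. In CPM, WT replicate 1 (20203) lay above the 3 libraries labelled Srsf1-cKO (16715, 18261 and 16029). WT replicates 2 and 3 (6071 and 12443) lay below them. The groups thus overlapped on both scales (log2 fold change 0.40, SE 0.34, edgeR adjusted p = 0.441). The exact two-sided permutation test of CPM gave p = 0.4, where 3 against 3 libraries cannot go below 0.1.

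Box C/D snoRNPs hold the methyltransferase fibrillarin (Fbl), the scaffold pair Nop56 and Nop58, and a small protein that binds the RNA, listed in the table under its older symbol Nhp2l1. Nop56 rose and the other 2 members of the list did not (1 of 3 called higher, 33.3%, beside 8.90% of all genes tested). Nop56 stood at 465, 493 and 442 CPM in the libraries labelled Srsf1-cKO and at 302, 264 and 363 CPM in WT. The lowest Srsf1-cKO value lay above the highest WT value (log2 fold change 0.59, SE 0.14, 95% interval 0.27 to 0.92, edgeR adjusted p = 0.0250, or 1.51-fold). Nop58 stood at 596, 586 and 480 CPM in the libraries labelled Srsf1-cKO and at 656, 558 and 636 CPM in WT, with overlap (-0.16, SE 0.13, adjusted p = 0.442). Fbl stood at 115, 108 and 97.0 CPM in the libraries labelled Srsf1-cKO and at 134, 110 and 94.6 CPM in WT, again with overlap (-0.09, SE 0.15, adjusted p = 0.725). Nhp2l1, which also serves in the spliceosome and was listed among the other genes of the pathway, rose as well: 50.03, 52.5 and 52.8 CPM in the libraries labelled Srsf1-cKO, all above the 35.8, 33.2 and 30.4 CPM of WT (0.64, SE 0.14, adjusted p = 0.0173). There were 0.781, 0.841 and 0.921 Nop56 reads per Nop58 read in the libraries labelled Srsf1-cKO, and 0.460, 0.474 and 0.570 in WT. The ratio of Nop56 to Nhp2l1, both of which rose, overlapped, at 8.38 to 9.39 in the libraries labelled Srsf1-cKO and 7.97 to 11.9 in WT. The ratio of Nop58 to Fbl overlapped too, at 4.95 to 5.43 in the libraries labelled Srsf1-cKO and 4.88 to 6.73 in WT.

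**Figure D3:**
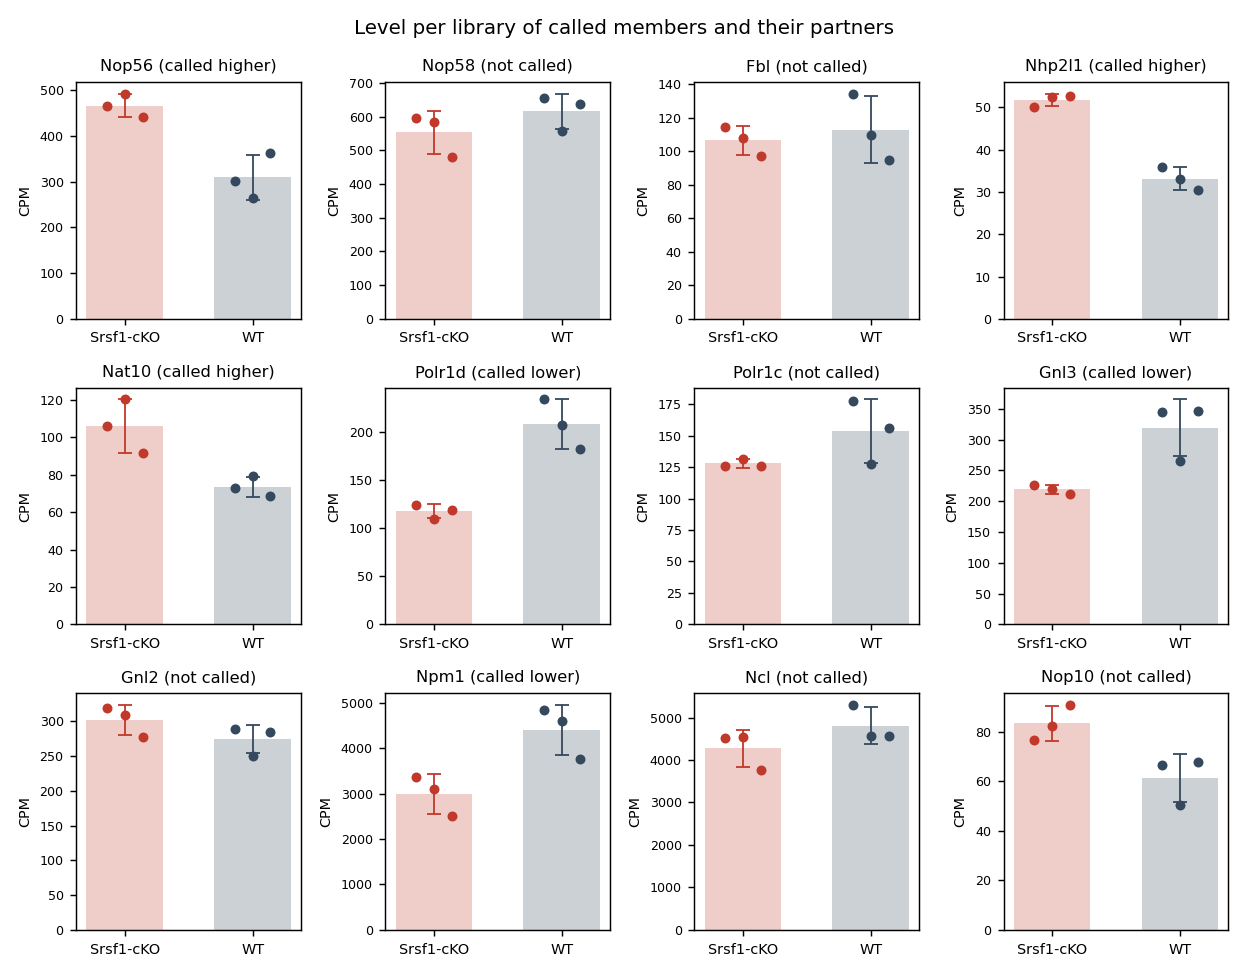
CPM per library (points), mean (bar) and SD (whisker) of the 5 called genes, of partners and of Nop10, with 3 libraries labelled Srsf1-cKO on the left of each panel and 3 WT libraries on the right; each axis starts at 0. Points of the groups are apart for Nop56, Nhp2l1, Nat10, Polr1d, Gnl3, Npm1 and Nop10, and, by a narrow gap, for Ncl.

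Some of these genes also carry, inside their introns, the small RNAs that such particles are built on. By the GENCODE M21 annotation, 7 of the 40 genes held a snoRNA gene on their own strand (17.5%, beside 1.18% of all protein-coding genes): Nop56, Nop58, Dkc1, Wdr43, Tsr1, Gnl3 and Ncl. Of the called genes, Nop56 held 5 and Gnl3 held 3. Those of them with a Snord name are shown because they tie called genes to the box C/D particle, which Nop56 protein helps to form. Capitals mark the letters GATGA of box C (first match) and CTGA of box D (last match), searched on the RNA strand alone; Snord19 has no GATGA match.
Snord57, inside Nop56: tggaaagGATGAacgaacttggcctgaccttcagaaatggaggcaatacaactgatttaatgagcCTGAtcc
Snord110, inside Nop56: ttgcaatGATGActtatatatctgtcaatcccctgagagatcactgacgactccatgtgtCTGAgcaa
Snord19, inside Gnl3: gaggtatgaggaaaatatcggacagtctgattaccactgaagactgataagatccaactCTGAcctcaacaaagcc
Snord69, inside Gnl3: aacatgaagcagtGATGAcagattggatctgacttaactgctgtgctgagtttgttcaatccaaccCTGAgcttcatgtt
The libraries were not made to hold RNAs of this size, and all 4 stayed under the filter. Snord57 had 9, 10 and 9 counts in the libraries labelled Srsf1-cKO and 6, 3 and 3 in WT. Snord110, of the same host, had 0, 1 and 3 counts in the libraries labelled Srsf1-cKO and 0, 0 and 5 in WT. In Gnl3, Snord19 had 9, 4 and 6 counts in the libraries labelled Srsf1-cKO and 2, 0 and 7 in WT, and Snord69 had 3, 1 and 4 against 4, 1 and 2 in WT. The groups overlapped for all but Snord57. These few reads can also come from unspliced host RNA.

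The promoter windows of the called genes follow, because these genes carry the calls of the list. They are RefSeq entries of build GRCm38.p6 (the reads were aligned to mm9), from 250 bases before to 50 bases after the start; Npm1 is named only. Capitals mark the bases after the start.
Nop56, chr2:130274162-130274461, plus strand: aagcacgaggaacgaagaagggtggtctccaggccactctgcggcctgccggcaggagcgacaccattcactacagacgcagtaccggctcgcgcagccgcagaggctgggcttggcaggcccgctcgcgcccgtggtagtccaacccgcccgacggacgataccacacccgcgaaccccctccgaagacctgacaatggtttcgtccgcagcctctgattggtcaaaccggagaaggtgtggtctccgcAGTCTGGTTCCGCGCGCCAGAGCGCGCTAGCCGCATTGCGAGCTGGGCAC
Nat10, chr2:103761221-103761520, minus strand: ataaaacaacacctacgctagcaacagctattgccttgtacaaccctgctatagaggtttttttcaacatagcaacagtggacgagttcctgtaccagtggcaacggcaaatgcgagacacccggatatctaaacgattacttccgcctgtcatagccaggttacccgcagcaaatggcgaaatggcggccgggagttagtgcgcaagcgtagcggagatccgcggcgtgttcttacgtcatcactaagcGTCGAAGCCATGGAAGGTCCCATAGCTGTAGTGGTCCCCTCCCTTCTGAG
Polr1d, chr5:147077096-147077395, plus strand: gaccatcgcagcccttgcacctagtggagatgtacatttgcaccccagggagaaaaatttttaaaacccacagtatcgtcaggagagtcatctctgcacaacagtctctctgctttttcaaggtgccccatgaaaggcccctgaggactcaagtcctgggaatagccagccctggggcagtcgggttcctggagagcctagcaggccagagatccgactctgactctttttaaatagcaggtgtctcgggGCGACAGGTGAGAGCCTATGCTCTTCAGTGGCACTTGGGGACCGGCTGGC
Gnl3, chr14:31019082-31019381, minus strand: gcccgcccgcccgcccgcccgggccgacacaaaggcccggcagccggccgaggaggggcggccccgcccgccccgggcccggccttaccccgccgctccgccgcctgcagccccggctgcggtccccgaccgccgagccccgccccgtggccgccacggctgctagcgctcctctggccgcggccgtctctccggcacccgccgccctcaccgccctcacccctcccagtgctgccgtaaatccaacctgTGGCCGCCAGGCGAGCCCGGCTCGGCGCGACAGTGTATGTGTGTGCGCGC

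The window was searched for CACGTG, the E-box that MYC is known to bind, which reads the same on both strands. It occurs in 0 of the 4 windows above. Of the 34 listed genes with an entry, 7 (20.6%) had it, beside 8.09% of all 27025 genes with an entry; by window the shares were 16.7% of 42 and 7.15% of 32851. Of those 7 genes 0 were called, beside 18.4% of all genes tested. Windows of the 7 are printed to show where the site sits, in capitals, with the flanking bases. A match of letters is not a bound site.
Nop2, chr6:125131806-125131845, plus strand: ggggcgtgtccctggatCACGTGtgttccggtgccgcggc
Ltv1, chr10:13193088-13193126, minus strand: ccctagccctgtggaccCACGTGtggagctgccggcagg
Pes1, chr11:3963960-3963999, plus strand: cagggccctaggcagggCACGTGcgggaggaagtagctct
Mybbp1a, chr11:72441350-72441376, plus strand: tgactgtcttctgagccCACGTGtttg
Tsr1, chr11:74898087-74898126, plus strand: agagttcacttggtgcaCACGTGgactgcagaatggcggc
Rrn3, chr16:13780467-13780506, plus strand: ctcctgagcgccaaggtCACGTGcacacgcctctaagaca
Rrn3, chr16:13780634-13780673, plus strand: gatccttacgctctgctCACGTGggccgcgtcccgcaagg
Wdr43, chr17:71616215-71616254, plus strand: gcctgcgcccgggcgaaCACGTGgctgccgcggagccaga
The site begins 60 bases before the start in Nop2, 48 and 215 bases before it in Rrn3, and at bases 3, 18, 25, 29 and 41 after it in Pes1, Wdr43, Tsr1, Ltv1 and Mybbp1a. The log2 fold changes of these genes were -0.04 for Nop2, 0.27 for Rrn3, -0.06 for Pes1, 0.26 for Wdr43, -0.32 for Tsr1, 0.12 for Ltv1 and -0.02 for Mybbp1a, so they lay on both sides of 0.

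Box H/ACA particles hold the pseudouridine synthase dyskerin (Dkc1) with Gar1, Nhp2 and Nop10, and the phosphoprotein Nolc1 (Nopp140) accompanies them. None of the 5 genes passed, beside 18.4% of all genes tested. Dkc1 stood at 418, 421 and 383 CPM in the libraries labelled Srsf1-cKO and at 470, 335 and 438 CPM in WT (log2 fold change -0.03, SE 0.15, adjusted p = 0.922). Nhp2 was likewise close to 0 (-0.02, SE 0.13), with 2.99 to 3.62 Dkc1 reads per Nhp2 read in the libraries labelled Srsf1-cKO and 3.09 to 3.60 in WT. Gar1 and Nolc1 had log2 fold changes of 0.13 (SE 0.12) and -0.07 (SE 0.14). Nop10, the smallest protein of the particle, differed most: 76.7, 82.6 and 91.1 CPM in the libraries labelled Srsf1-cKO and 66.6, 50.3 and 67.7 CPM in WT. Its groups did not overlap, but the test did not pass (0.44, SE 0.16, 95% interval 0.09 to 0.79, adjusted p = 0.0801).

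In the small-subunit branch, 1 of 12 genes was called, higher (8.33%, beside 8.90% of all genes tested). Nat10, which acetylates cytidines of 18S ribosomal RNA, stood at 106, 120 and 91.4 CPM in the libraries labelled Srsf1-cKO and at 72.9, 79.2 and 68.4 CPM in WT, with no overlap (log2 fold change 0.53, SE 0.14, 95% interval 0.20 to 0.85, edgeR adjusted p = 0.0362, or 1.44-fold). The first proteins to join the nascent transcript include Heatr1, Wdr43 and Wdr75. Wdr43, the most abundant of the 12 per transcript length, stood at 676, 689 and 621 CPM in the libraries labelled Srsf1-cKO and at 586, 548 and 526 CPM in WT, without overlap and without passing (0.26, SE 0.12, adjusted p = 0.147). Heatr1 and Wdr75 had log2 fold changes of 0.08 and 0.17, with overlap. The later factors of the early particle, Pwp2, Nop14, Bms1 (a GTPase), Rrp9 (a protein of the U3 snoRNP) and Rrp12, had values between -0.09 (Bms1) and 0.29 (Rrp12, SE 0.21), all with overlapping groups.

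Among factors of the maturing 40S particle, Nob1, the nuclease that cuts the 3′ end of 18S RNA, stood at 77.6, 80.8 and 81.4 CPM in the libraries labelled Srsf1-cKO and at 120, 90.3 and 91.6 CPM in WT. Tsr1, a GTPase-like assembly factor, stood at 215, 219 and 170 CPM in the libraries labelled Srsf1-cKO and at 295, 220 and 237 CPM in WT. Neither gene's groups overlapped, narrowly so for Tsr1, and neither passed (log2 fold changes -0.33 and -0.32, adjusted p = 0.140 and 0.185 by edgeR). For Ltv1, a factor for export and maturation of the particle, the log2 fold change was 0.12 (SE 0.13).

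In the large-subunit branch, 1 of 9 genes was called, lower (11.1%, beside 9.50% of all genes tested). Gnl3, which encodes nucleostemin, a nucleolar GTPase abundant in stem and dividing cells, stood at 226, 219 and 211 CPM in the libraries labelled Srsf1-cKO and at 345, 266 and 347 CPM in WT. Its groups did not overlap (log2 fold change -0.54, SE 0.14, 95% interval -0.86 to -0.23, edgeR adjusted p = 0.0287). The related GTPase gene Gnl2 stood at 319, 309 and 277 CPM in the libraries labelled Srsf1-cKO and at 288, 251 and 284 CPM in WT, with overlap (0.14, SE 0.12, adjusted p = 0.453). There were thus 0.709, 0.709 and 0.763 Gnl3 reads per Gnl2 read in the libraries labelled Srsf1-cKO, and 1.20, 1.06 and 1.22 in WT.

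Pes1, Bop1 and Wdr12 form the PeBoW complex, which is needed for processing of the large-subunit RNA, and none of them passed. Pes1 stood at 184, 176 and 164 CPM in the libraries labelled Srsf1-cKO and 197, 174 and 174 CPM in WT (log2 fold change -0.06, SE 0.12). Bop1 and Wdr12 had log2 fold changes of 0.26 (SE 0.18) and 0.11 (SE 0.13), with overlap. There were 0.579 to 0.655 Wdr12 reads per Pes1 read in the libraries labelled Srsf1-cKO and 0.523 to 0.570 in WT, which do not overlap although neither gene was called. The RNA methyltransferase gene Nop2 (-0.04), the assembly factor genes Nop16 (0.21) and Rrs1 (0.01), and Rrp1b (0.09) did not pass either, and of these Nop16 alone had groups that did not overlap (118.1, 132.3 and 128.5 CPM in the libraries labelled Srsf1-cKO, against 117.96, 91.05 and 117.46 CPM in WT, a narrow gap).

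The abundant nucleolar proteins include nucleophosmin (Npm1), a histone and ribosome chaperone, and nucleolin (Ncl). Npm1 fell: 3361, 3095 and 2502 CPM in the libraries labelled Srsf1-cKO and 4837, 4609 and 3776 CPM in WT. The highest Srsf1-cKO library lay below the lowest WT library (log2 fold change -0.56, SE 0.15, 95% interval -0.91 to -0.21, edgeR adjusted p = 0.0372). Of the 5 calls it was the one that held in the fewest fits with a library left out, 1 of 6. Npm1 is known to have processed copies in the genome, and how many of its own reads map to several places was not measured. Over whole libraries 14.93 to 15.93% of reads did so in the libraries labelled Srsf1-cKO, against 15.69 to 17.02% in WT; the part of this in the result was not tested. Ncl stood at 4521, 4539 and 3756 CPM in the libraries labelled Srsf1-cKO and at 5306, 4566 and 4557 CPM in WT, a narrow gap (-0.17, SE 0.13, adjusted p = 0.385). There were 0.743, 0.682 and 0.666 Npm1 reads per Ncl read in the libraries labelled Srsf1-cKO, and 0.912, 1.01 and 0.829 in WT. The RNA helicase gene Ddx21 (0.07, SE 0.12) and Mybbp1a, the gene of a repressor of ribosomal RNA transcription (-0.02, SE 0.13), overlapped.

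**Figure D4:**
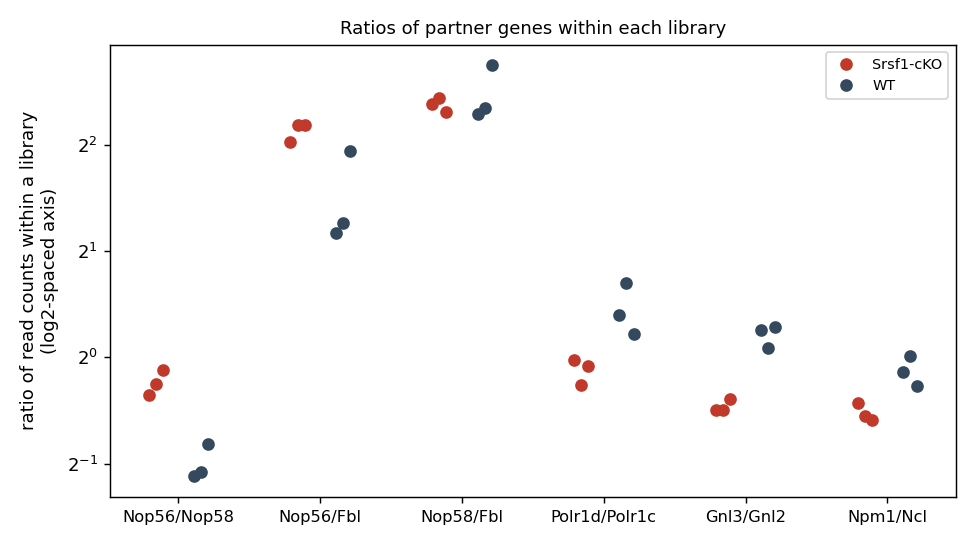
Ratio of read counts of paired genes within each library (y axis spaced by log2), 3 libraries labelled Srsf1-cKO in red on the left of each pair and 3 WT libraries in dark blue on the right. Of these 6 pairs, chosen after their values were seen, the 5 that hold a called gene show separate clouds and Nop58/Fbl overlaps.

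Levels between genes can be compared only per transcript length, for which the deposited FPKM values serve (fragments per kilobase, scaled for depth). Npm1 was by far the most abundant of the 40, at 2451 FPKM on average in the libraries labelled Srsf1-cKO and 3338 FPKM in WT. Ncl followed at 391 and 409 FPKM, a level that rests on a long transcript: counts and FPKM of Ncl give about 11325 bases. GENCODE M21 lists coding transcripts of 661 and 8202 bases for Ncl. Lengths found in this way follow the scales of both measures and are not true lengths. In the libraries labelled Srsf1-cKO they were 1.38 times the longest coding transcript for Ncl and 1.35 times for Rrn3, Bms1 and Ddx21. For Polr1a the value was 0.919 times and for Nop10 0.656 times. Polr1d, Ddx21 and Nop56 came next. The place of Polr1d also rests on its length: counts and FPKM give 487 bases in the libraries labelled Srsf1-cKO and 615 in WT, where GENCODE M21 lists coding transcripts of 1137 to 1196 bases. Nop56 stood at 304 FPKM in the libraries labelled Srsf1-cKO, above Ddx21 (264 FPKM) and Polr1d (250 FPKM). In WT, Polr1d stood at 325 FPKM, Ddx21 at 233 FPKM and Nop56 at 183 FPKM, the last below Nop58 (230 FPKM). At the low end were Polr1e (14.2 and 10.3 FPKM), Rrp12 (19.8 and 15.0 FPKM) and Nat10 (20.6 and 13.3 FPKM, each time Srsf1-cKO before WT). Subunits of the polymerase thus differed widely, Polr1a standing at 26.5 FPKM in the libraries labelled Srsf1-cKO and 21.9 FPKM in WT. The box H/ACA genes Dkc1, Nhp2 and Nop10 lay close together, at 114, 112 and 119 FPKM in the libraries labelled Srsf1-cKO and 108, 106 and 81.2 FPKM in WT, with Gar1 lower (52.2 and 44.1 FPKM).

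**Figure D5:**
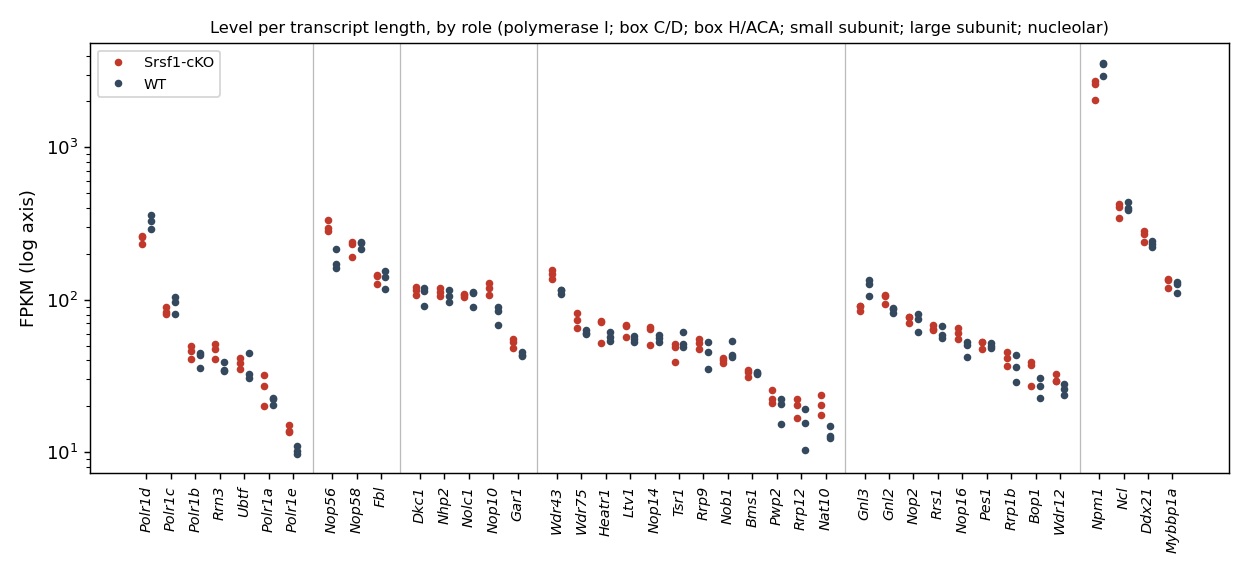
FPKM (log axis) of each gene in the 3 libraries labelled Srsf1-cKO (red, left) and the 3 WT libraries (dark blue, right), by role and from high to low within a role. Npm1 stands above all others in every library, and Polr1e, Nat10 and Rrp12 lie at the low end.

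The same table, tested with limma on log2(FPKM + 1), called 6 of the 40 genes, beside 18.7% of its 9617 genes tested. Among them were Nop56 (0.74, adjusted p = 0.0141), Nat10 (0.58, adjusted p = 0.0347) and Gnl3 (-0.45, adjusted p = 0.0415), and in addition Nop10 (0.55, adjusted p = 0.0328), Polr1e (0.43, adjusted p = 0.0470) and Wdr43 (0.36, adjusted p = 0.0487). Npm1 and Polr1d did not pass there (-0.45 and -0.38, limma adjusted p = 0.0657 and 0.0628). On that scale the median of all genes lay at 0.10, so rises and falls are relative to that value. The same 3 additional genes passed in the counts when scaled by library size alone, where 18.9% of all genes were called and their median was 0.11.

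Reads may be shared with genes on the other strand, since no source used here says that counting used the strand. Among the called genes this bears on Nop56, whose exons overlap those of Idh3b, and on Gnl3, whose exons overlap those of Pbrm1, by GENCODE M21. Both neighbours, named after their values were seen, were called, in the opposite direction to their partner; the part of shared reads was not tested. Idh3b, a gene of the citric acid cycle, stood at 103 ± 8.83 CPM in the libraries labelled Srsf1-cKO and 157 ± 24.8 CPM in WT (log2 fold change -0.61, edgeR adjusted p = 0.0271). Pbrm1, a chromatin remodeller gene, stood at 254 ± 11.1 CPM in the libraries labelled Srsf1-cKO and 181 ± 27.7 CPM in WT (0.48, adjusted p = 0.0447; SD, n = 3 each).

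Of 182 other genes of the pathway, in 7 lists, 175 were tested: 18 rose and 10 fell, beside 8.90% and 9.50% of all genes tested. Of the 175 genes 121 lay in the 3 lists of assembly factors and nucleases, and so did 16 of the 18 rises and 3 of the 10 falls. These 3 lists were not planned as a set, and 15.7% of their genes were called, beside 18.4% of all genes tested. Among 26 genes of the RNA exosome and other nucleases of ribosomal RNA processing, 6 rose (23.1%, beside 8.90% of all genes tested) and 0 fell (beside 9.50%). The median log2 fold change of the 26 was 0.22. Pop1, the largest protein of RNase MRP and RNase P, rose the most: 70.8 ± 12.7 CPM in the libraries labelled Srsf1-cKO and 27.8 ± 5.36 CPM in WT (1.35, SE 0.20, edgeR adjusted p = 0.00667). Exosc3 (0.79), of the exosome's cap, rose, as did Dis3, its catalytic subunit (229 ± 27.5 CPM in the libraries labelled Srsf1-cKO and 147 ± 4.14 CPM in WT). Xrn2, the exonuclease that was the most abundant of the list per length, did not pass (0.18, adjusted p = 0.360).

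Among 44 other small-subunit factors 6 rose and 1 fell, beside 8.90% and 9.50% of all genes tested, with a median of 0.03. After Nhp2l1 the smallest adjusted p were those of Pno1, a partner of Nob1 (173 ± 6.79 CPM in the libraries labelled Srsf1-cKO and 122.9 ± 2.86 CPM in WT; 0.49, adjusted p = 0.0209) and Tbl3, a protein of the same early complex as Pwp2 (0.53, adjusted p = 0.0373). Per length Nhp2l1 was also the most abundant of that list, at 215 FPKM in the libraries labelled Srsf1-cKO and 125 FPKM in WT. Among 51 other large-subunit factors 4 rose and 2 fell, beside the same 8.90% and 9.50%, with a median of 0.05. Rpf2, which brings 5S RNA into the particle together with Rrs1, rose (160 ± 8.68 CPM in the libraries labelled Srsf1-cKO and 105 ± 2.55 CPM in WT; 0.61, adjusted p = 0.0115), while Rrs1 itself had a log2 fold change of 0.01. Brix1 also rose (0.46, adjusted p = 0.0310) and Nsa2 fell (-0.66, adjusted p = 0.0172). The most abundant of this list per length, Rsl1d1, did not pass (0.16, adjusted p = 0.426).

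Of 15 other polymerase I factors, 1 was called, lower (6.67%, beside 9.50% of all genes tested). Taf1d, a subunit of the promoter factor SL1, fell to 153 ± 11.6 CPM in the libraries labelled Srsf1-cKO, against 275 ± 11.5 CPM in WT (-0.84, SE 0.12, edgeR adjusted p = 0.00663). It was also the most abundant of these genes per length, at 104 FPKM in the libraries labelled Srsf1-cKO and 178 FPKM in WT. Among 21 genes of RNA polymerase III and its factors, which make 5S RNA, 2 rose and 1 fell, beside 8.90% and 9.50% of all genes. The fall was that of Maf1, the repressor of this polymerase (32.0 ± 0.961 CPM in the libraries labelled Srsf1-cKO and 57.9 ± 3.49 CPM in WT; -0.86, adjusted p = 0.00801), and Gtf3c3 and Gtf3a rose (0.65 and 0.63), while Bdp1, with the highest mean FPKM over the 6 libraries, had a log2 fold change of 0.01. Without WT replicate 1, 1 of the 175 genes was called higher and 4 lower, where 0.754% and 1.08% of all genes were. Without Srsf1-cKO replicate 2 it was 1 higher and 3 lower, beside 1.23% and 0.968% of all genes. Without Srsf1-cKO replicate 1, 7 were called higher and 7 lower, beside 5.35% and 5.21%.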

How the data were processed

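RNA of 3 libraries labelled Srsf1-cKO and 3 WT libraries was read. The authors deposited whole-number read counts per gene symbol, not normalized, and a second table whose values were read here as FPKM, because they are not whole and, set against the counts, give transcript lengths. An alignment report, also deposited, gave read numbers and the percent of reads mapped. Reads were aligned with STAR 2.4.2a, per the file headers, to mm9, and Cufflinks was named too, per the submitters' processing notes; for the counting program, the strand setting and the annotation no source used here gives a name. All 6 columns of each table were used.

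Counts were tested with edgeR 4.0.16 (R 4.3.3): filterByExpr, TMM, quasi-likelihood test with genotype as the only term, two-sided, Benjamini-Hochberg adjustment over 10454 genes. CPM are counts scaled by TMM library size. The FPKM test used limma 3.58.1 (mean-variance trend) and log2(FPKM + 1), keeping rows that reached 1 FPKM in 3 libraries; the added 1 shrinks fold changes of weakly expressed genes. Replicates of a group differed by more than sampling noise (chi-square per degree of freedom 6.53 to 38.9 over gene counts). Members and lists were chosen with earlier results of these data known. Named are all called members, and the most abundant and the most changed member of each role. Of each other list, up to 3 called genes with the smallest adjusted p and the most abundant one by mean FPKM are named. The other members are given more briefly. Idh3b, Pbrm1, Pml, Trp53 and the snoRNAs lie outside this rule and were chosen after their values were seen. The alternatives were other scalings and filters, DESeq2 1.42.0, limma-voom, a replicate block, each library left out, a threshold of 0.1 and the FPKM table. The scripts were tested on simulated data.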

Additional observations from a re-analysis of the deposited data

How the results depend on the processing

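With RLE or upper-quartile scaling, 2 other filters on low counts, DESeq2, limma-voom or a replicate block, the same 5 genes were called, 2 higher and 3 lower, and 0 of the 40 genes changed sign while called in any setting. All-gene shares called there were 14.4 to 21.7%. With library size alone 5 were called higher and 2 lower, Npm1 not passing, beside 12.1% and 6.78% of all genes. On log2(FPKM + 1) 5 were higher and 1 lower, beside 12.3% and 6.39% of all genes. The same 5 and 1 were found on log2(FPKM + 0.1), beside 12.1% and 6.31%. Without the filter on FPKM 2 of the 40 were called higher and 0 lower, beside 4.98% and 2.57% of all genes (1146 called). Of the other pathway genes 18 were higher there and 5 lower. At an adjusted p under 0.1, 4 were called higher and 3 lower, where 28.4% of all genes (2972) were called in either direction. Of the other pathway genes 25 were higher at that threshold and 16 lower. With one library left out in turn the number higher was 0 to 2 and lower 0 to 3. There 195 to 1989 of all genes (1.84 to 18.7%) were called, 1 to 16 other pathway genes higher and 3 to 13 lower, and 0 to 4 of the 40 in FPKM. The log2 fold change of Srsf1 was -0.0047 (without WT replicate 2) to 0.115 and that of Rn45s 0.05 to 0.86.

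Whether the replicate numbers pair the libraries was not settled. Deviations of same-numbered libraries correlated at 0.25, 0.01 and 0.29 over genes, and those of differently numbered libraries at -0.34 to 0.21. Not every library correlated best with its own number. A replicate block called 2270 of all genes, against 1923 without it. Of 595 alternative values of the 35 genes that did not pass, 10 passed (Polr1e, Nop10 and Wdr43) and 67 had the opposite sign. For those 35 genes the 95% interval reached 0.26 (Bms1) to 0.47 (Rrp12) to either side on the log2 scale.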

Other observations

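Among genes linked to nucleolar stress, Rpl5, Rpl11, Bbc3 and Trp53, the gene of p53, were lower. When ribosome assembly fails, free ribosomal proteins L5 and L11 are known to bind MDM2 and to stabilise p53. Of 9 such genes tested, 4 fell and 0 rose, beside 9.50% of all genes tested that were lower. The other 5 did not pass. The log2 fold change was negative for 8 of the 9 and positive for Pml alone (0.22). Rpl5 fell to 1249 ± 62.8 CPM in the libraries labelled Srsf1-cKO, against 2156 ± 144 CPM in WT (SD, n = 3 each; log2 fold change -0.79, edgeR adjusted p = 0.00702). Rpl11 fell as well (-0.67, adjusted p = 0.0221), and so did Trp53, close to the threshold (-0.43, edgeR adjusted p = 0.0490). Bbc3, a death gene that p53 can induce, stood at 6.89 ± 1.04 CPM in the libraries labelled Srsf1-cKO and 24.9 ± 7.71 CPM in WT (-1.85, adjusted p = 0.00667).

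In the MYC network 0 of 9 tested genes rose, beside 8.90% of all genes tested, and 1 fell, beside 9.50%: Mxi1, the gene of an antagonist of MYC (53.4 ± 13.7 CPM in the libraries labelled Srsf1-cKO and 127 ± 38.0 CPM in WT; -1.25, edgeR adjusted p = 0.0151). Myc itself stood at 927, 870 and 1283 CPM in the libraries labelled Srsf1-cKO and at 1261, 1095 and 1548 CPM in WT, with overlap (-0.34, SE 0.19, edgeR adjusted p = 0.225). The log2 fold change was negative for all 9 tested genes of this list, with a median of -0.30.

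Counts and FPKM come from the same reads, yet for Polr1d they differed by genotype. The transcript length that makes the 2 tables equal was 487 bases on average in the libraries labelled Srsf1-cKO and 615 bases in WT, a log2 shift of -0.34. Of 6546 genes with at least 100 counts in every library, 5, Polr1d included, had a shift that large in either direction, while the median shift was -0.0008. No other gene of the 40 shifted by more than 0.2. Polr1d has 3 coding transcripts in GENCODE M21, of 1137 to 1196 bases. Its log2 fold change was -0.82 in counts, where it was called, and -0.38 in FPKM, where it was not. This was seen after the values were known.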
